A study of Sus scrofa with 16 samples.

Results

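The annexin genes described here are ANXA1, ANXA2, ANXA4 and ANXA5. They were taken by gene symbol in the platform annotation, with earlier results of these data known. Each was read by 1 probe, giving 4 of the 637 genes that probes with a single symbol named on the array. The annotation ties ANXA1 to probe 572 (Entrez gene 396942), ANXA2 to probe 976 (406192), ANXA4 to probe 112 (100312960) and ANXA5 to probe 978 (100521982). Annexins are proteins that bind acidic membrane phospholipids when calcium is present, through a conserved core of annexin repeats, while the variable N-terminal stretch of each protein sets its partners. They take part in membrane trafficking, in membrane repair and in links between the membrane and the cortical actin skeleton. In the placenta of several mammals they are abundant on trophoblast membranes.

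The samples were whole pig embryos taken around implantation, when the conceptus (the embryo with its extraembryonic membranes) lengthens in the uterus. The stages were told apart by shape and length. Small spherical embryos measured 1 to 5 mm and large spherical ones 6 to 11 mm, tubular embryos spanned 13 to 45 mm, and filamentous embryos exceeded 100 mm. Each stage had 4 arrays. The labels name neither breed, age nor treatment, and do not say whether embryos were pooled or which litters they came from. The RNA was amplified, and a phosphorus-32 target made from it was hybridised to membranes spotted with cDNA, so each value is the brightness of 1 probe on a linear scale.

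The 16 arrays had median intensities of 62.8 to 71.4 over 1015 probes, and the number of arrays limits the precision. The arrays numbered 1, one in each stage, had the lowest scores on the first principal component (-16.3 to -8.17, against -4.25 to 9.40 elsewhere), and values on the 12 arrays numbered 2 to 4 are given where they matter. KRT18, a keratin of trophectoderm, was bright in every stage (198 to 312 in filamentous and 220 to 312 in small spherical embryos). None of the 5 embryonic disc markers was among the named genes. Of the maternal markers 2 were measured. ACP5, the acid phosphatase of uterine glands, ran from 9.07 to 31.9 over the 16 arrays, and the T cell gene CD3E from 0.33 to 4.34. In whole embryos, fewer cells of a type and less RNA per cell cannot be told apart.

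ANXA2 rose in filamentous over small spherical embryos, and no other annexin passed the test in any comparison of stages. ANXA2 forms a complex with S100A10, binds cortical actin and serves as a cell surface receptor for plasminogen and its activator. Its intensity on arrays 1 to 4 was 201, 116, 161 and 184 in filamentous embryos, against 69.1, 98.9, 92.7 and 73.7 in small spherical ones. Every filamentous array lay above every small spherical array, as was so for 4.54% of all probes. The stages between filled the gap, with 116, 78.0, 106 and 111 in large spherical and 118, 125, 144 and 102 in tubular embryos. Tubular arrays lay above all small spherical ones (log2 0.55 ± 0.20, limma, adjusted p = 0.229), and filamentous arrays above all large spherical ones (0.68 ± 0.20, adjusted p = 0.61), but neither difference passed. In these 2 comparisons 4.54% and 2.86% of all probes were separated in the same direction. The second separation was narrow, since the lowest filamentous and the highest large spherical array both read 116 when rounded and differed by less than the step of the value grid (0.815 to 1.67).

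**Figure D1:**
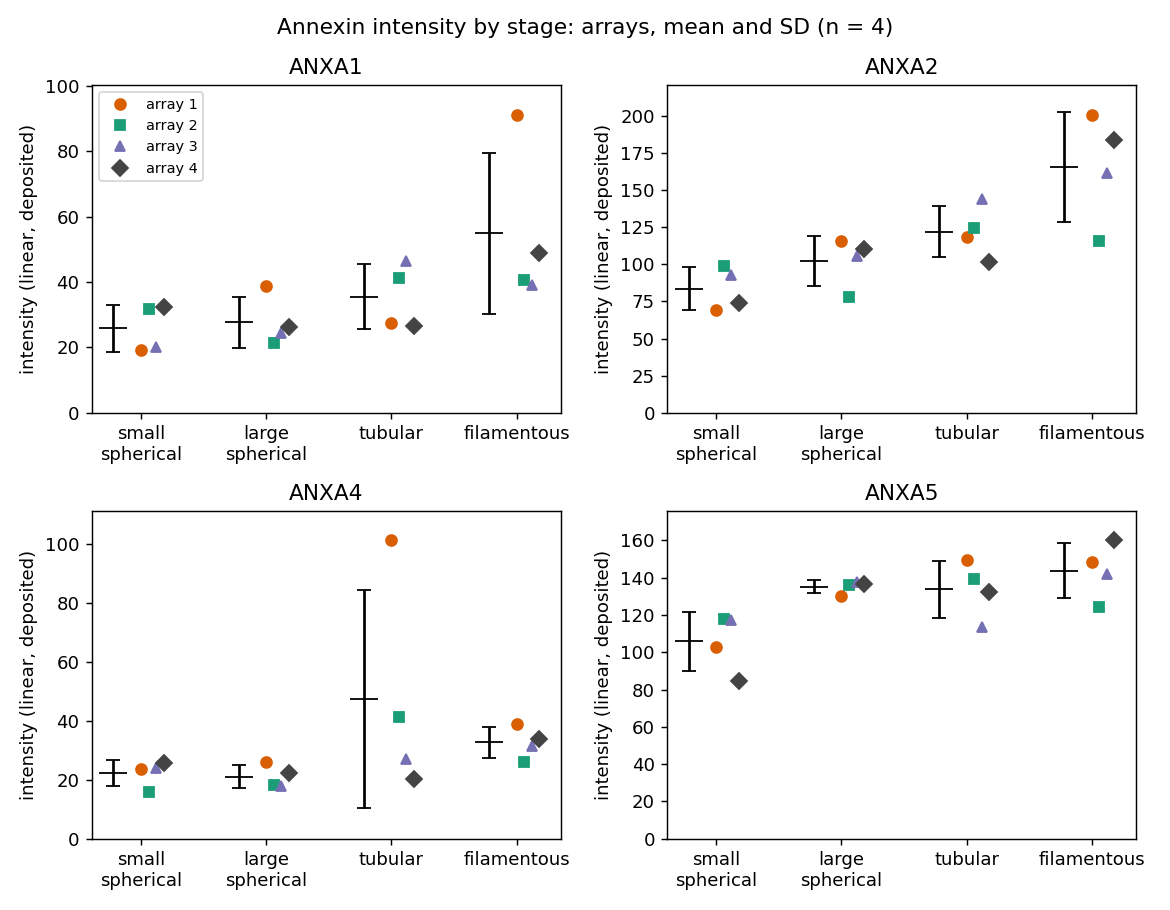
Deposited linear intensity of the 4 annexins (y axis) in the 4 stages, ordered by embryo length (x axis), with 4 arrays per stage as points by array number and the mean and SD beside them. ANXA2 averaged 165 in filamentous and 83.6 in small spherical embryos, while tubular array 1 stood far above the rest for ANXA4 and filamentous array 1 for ANXA1.

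The rise of ANXA2 was 1.96-fold between the ends of the series, with an unadjusted 95% interval of 1.45 to 2.64 (log2 difference 0.97 ± 0.20 SE, limma, adjusted p = 0.0309, n = 4 each). In that comparison 0.888% of the 1014 probes tested passed an adjusted p of 0.05, and ANXA2 was the 1 annexin among them. Read as a straight trend over the 4 ordered stages, ANXA2 rose by 0.32 ± 0.06 on the log2 scale per step (limma, adjusted p = 0.0293), where 0.986% of probes passed and 43.4% had a positive slope. The mean was higher at each step, at 83.6 ± 14.5, 103 ± 16.8, 122 ± 17.4 and 165 ± 36.9 (SD, n = 4), but neighbouring stages overlapped and no single step passed (adjusted p of 0.775, 0.999 and 0.994). The F test, which ignores the order of the stages, did not pass for ANXA2 (adjusted p = 0.142), and 0.394% of probes passed it (10.4% at an unadjusted p under 0.05).

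Some markers of the outer cell layer of the conceptus also rose. Of 15 trophectoderm markers listed, 7 were measured, and their summed intensity ran from 684 to 889 in filamentous and 566 to 719 in small spherical embryos. The difference was positive for 5 of the 7 (against 45.6% of all probes) and negative for IFNG (log2 -0.30) and KRT18 (-0.11). STAR, which moves cholesterol into mitochondria, and PLAC1, a placental gene, were the 2 of the 7 that rose past the threshold. Over all probes 0.789% did so, and no marker was at 0. The part of trophectoderm in the ANXA2 values was not tested.

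These calls rested on few arrays. On the arrays numbered 1 alone ANXA2 read 201 in the filamentous embryo sample and 69.1 in the small spherical one, and on the other 12 arrays the difference was 0.78 ± 0.23 (limma, adjusted p = 0.16). It also missed the threshold without small spherical array 1 or 4, or filamentous array 1, 3 or 4 (adjusted p of 0.0856, 0.0873, 0.066, 0.0944 and 0.11), and the trend was lost without the same 5 arrays (0.0676 to 0.0932). The sign was positive in all 29 alternatives, of which 18 passed, with a range of 0.0116 to 0.16.

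**Figure D2:**
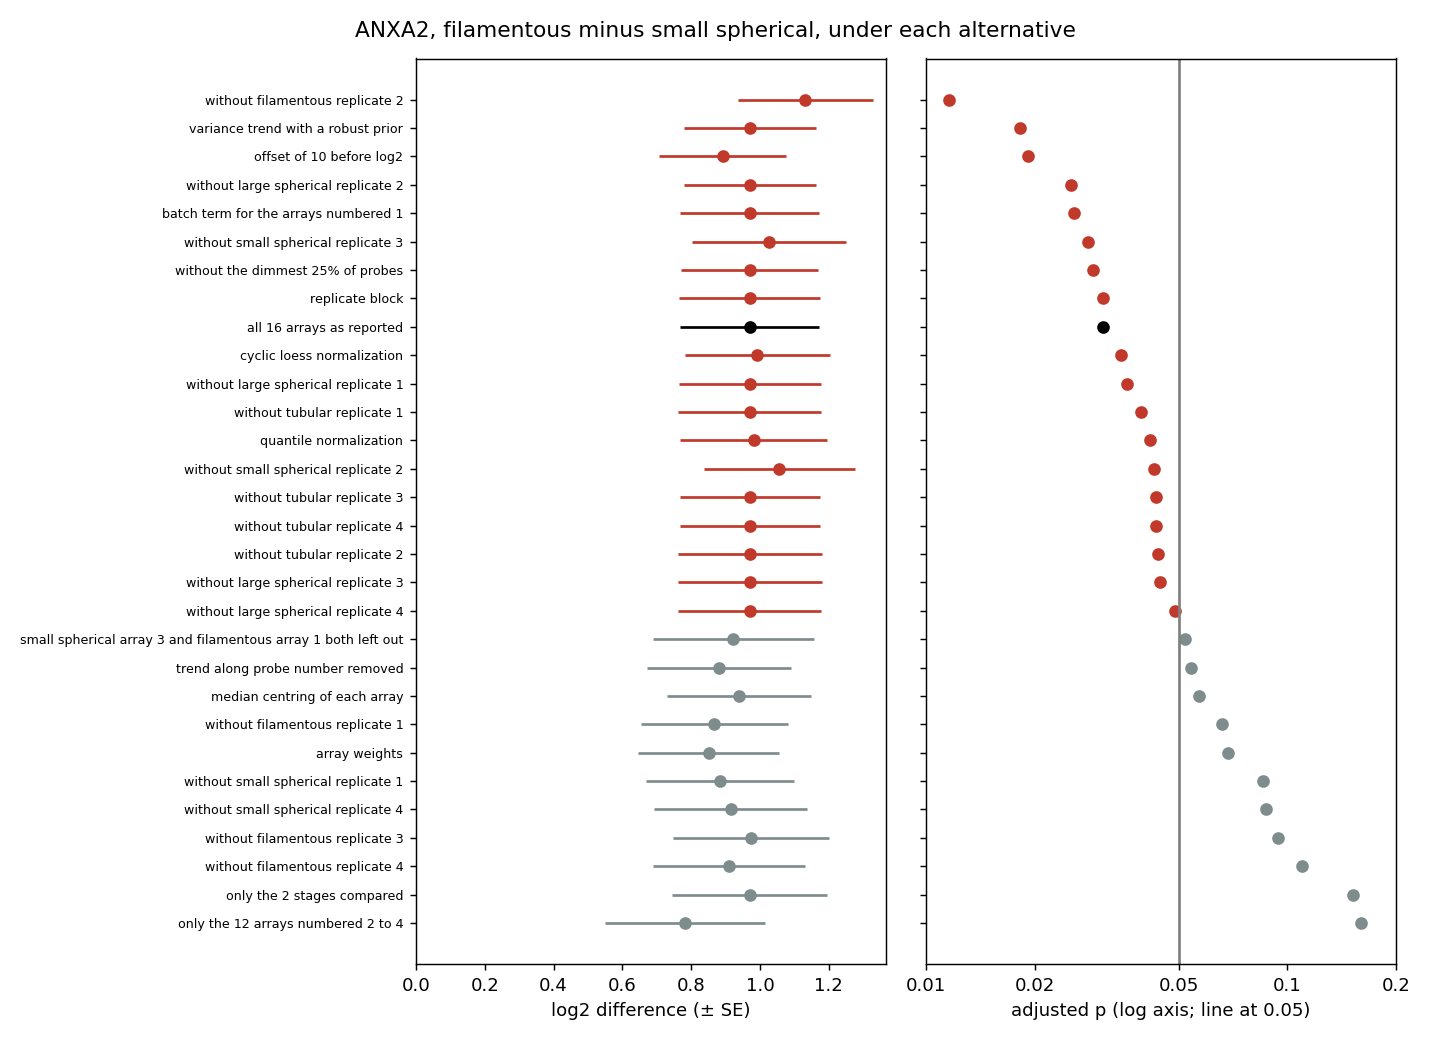
Left, the log2 difference of ANXA2 between filamentous and small spherical embryos with its SE under each alternative setting (rows); right, its adjusted p on a log axis with a line at 0.05. Red rows passed, grey rows did not and the black row is the fit to all 16 arrays; the difference ran from 0.78 to 1.13.

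ANXA1, an annexin known in human and mouse as a glucocorticoid-induced regulator of inflammation that acts through a formyl peptide receptor, had its highest mean in filamentous embryos. It read 91.2, 40.6, 39.0 and 49.0 on filamentous arrays 1 to 4, against 19.1, 31.8, 20.3 and 32.3 on small spherical ones. The groups did not overlap, as for 4.54% of probes in that direction, and filamentous array 1 stood well above every other array. In the stages between it read 38.9, 21.4, 24.4 and 26.2 (large spherical) and 27.5, 41.3, 46.6 and 26.6 (tubular). The stage means kept the order of embryo length, at 25.9 ± 7.14, 27.7 ± 7.72, 35.5 ± 9.99 and 54.9 ± 24.6 (SD, n = 4), with overlap between all neighbours.

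The fitted ratio of ANXA1 in filamentous over small spherical embryos was 2.05, with an interval of 1.32 to 3.21, and it did not pass (log2 1.04 ± 0.30, limma, adjusted p = 0.14). Its filamentous arrays also lay above all large spherical arrays (log2 0.93 ± 0.30, adjusted p = 0.611), a comparison in which 2.86% of probes had groups that did not overlap and 0% passed (limma; 6.02% had an unadjusted p under 0.05). The slope per stage was 0.35 ± 0.10 (limma, adjusted p = 0.0956). On the 12 arrays numbered 2 to 4 the difference between the ends of the series was 0.63 ± 0.25 (adjusted p = 0.325), and without filamentous array 1 alone it was 0.76.

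ANXA5, which binds phosphatidylserine and forms an anticoagulant lattice on human placental trophoblast had its lowest values in small spherical embryos and similar means in the stages after. It read 130, 136, 138 and 136 on large spherical arrays 1 to 4, against 103, 118, 118 and 84.6 on small spherical ones, and the groups did not overlap, as for 3.85% of probes in that direction. Tubular arrays read 150, 139, 114 and 133 and filamentous arrays 148, 124, 142 and 160, so both later stages overlapped the large spherical range. The order of the means was small spherical (106 ± 15.8), tubular (134 ± 15.3), large spherical (135 ± 3.40) and filamentous (144 ± 14.9; SD, n = 4), and the stages after small spherical overlapped each other. ANXA5 varied little between arrays of a stage, with a residual SD of 0.16 on the log2 scale against a median of 0.38 over all probes.

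None of these differences passed for ANXA5. Large over small spherical embryos gave a ratio of 1.29 with an interval of 1.03 to 1.61 (limma, adjusted p = 0.365, in a comparison where 0.394% of probes passed). Filamentous over small spherical embryos gave a ratio of 1.37, or 0.45 on the log2 scale with an interval of 0.13 to 0.77 (limma, adjusted p = 0.169). From large spherical to tubular and from tubular to filamentous embryos the fitted log2 differences were -0.02 and 0.11, with intervals of -0.34 to 0.29 and -0.21 to 0.42.

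ANXA4, an annexin of epithelial cells that is found beneath their membranes, had the widest spread of the 4, with a residual SD of 0.56 on the log2 scale. In tubular embryos it read 101, 41.3, 27.1 and 20.1 on arrays 1 to 4, a CV of 77.8% around a mean of 47.4 ± 36.9. It was steadier in filamentous embryos at 39.0, 26.1, 31.4 and 33.9, against 23.6, 15.8, 24.1 and 25.7 in small spherical embryos and 26.1, 18.0, 17.7 and 22.3 in large spherical ones. Every filamentous array was above every array of both spherical stages, but narrowly, since its lowest array read 26.1 while the highest spherical arrays read 25.7 and 26.1. Of all probes, 4.54% were separated in that direction from small and 2.86% from large spherical embryos. By mean the order was large spherical (21.0 ± 3.98), small spherical (22.3 ± 4.43), filamentous (32.6 ± 5.36) and tubular, and the tubular range covered the filamentous one.

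The fitted ratio of ANXA4 in filamentous over small spherical embryos was 1.47 with an interval of 0.852 to 2.55 (limma, adjusted p = 0.547). The spread behind that interval was pooled over all stages. The log2 difference was 0.56 ± 0.37, and 0.56 ± 0.24 without tubular array 1, an array of neither stage (limma, adjusted p = 0.276). For ANXA4, tubular embryos gave a log2 difference of 0.83 ± 0.37 over small spherical ones (limma, adjusted p = 0.412), which was 0.37 without tubular array 1. Filamentous minus tubular gave -0.27 ± 0.37, and 0.19 without that array, so the place of the highest stage for ANXA4 turned on 1 array. The SE of ANXA4 in tubular minus small spherical embryos was 0.26 without it.

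Set side by side, all 4 annexins had a positive difference in filamentous over small spherical embryos, with a median log2 difference of 0.76, while 45.6% of all probes were positive and the median of all probes was -0.03. All 4 also had groups that did not overlap in this comparison (4.54% of probes), and 3 of the 4 (ANXA1, ANXA2 and ANXA5) had an unadjusted p under 0.05 by limma, as had 9.57% of probes in the higher direction and 14.6% in either. In tubular over small spherical embryos the median was 0.50 with 4 of 4 positive (40.7% of probes were positive), and ANXA2 was the member without overlap (4.54% of probes). No annexin passed in that comparison, where 0.394% of probes did. In filamentous over large spherical embryos it was 0.66 with 4 of 4 positive (47.4% of probes), without overlap for ANXA1, ANXA2 and ANXA4 (2.86% of probes). Since the 3 comparisons have stages in common, they rest partly on the same arrays.

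**Figure D3:**
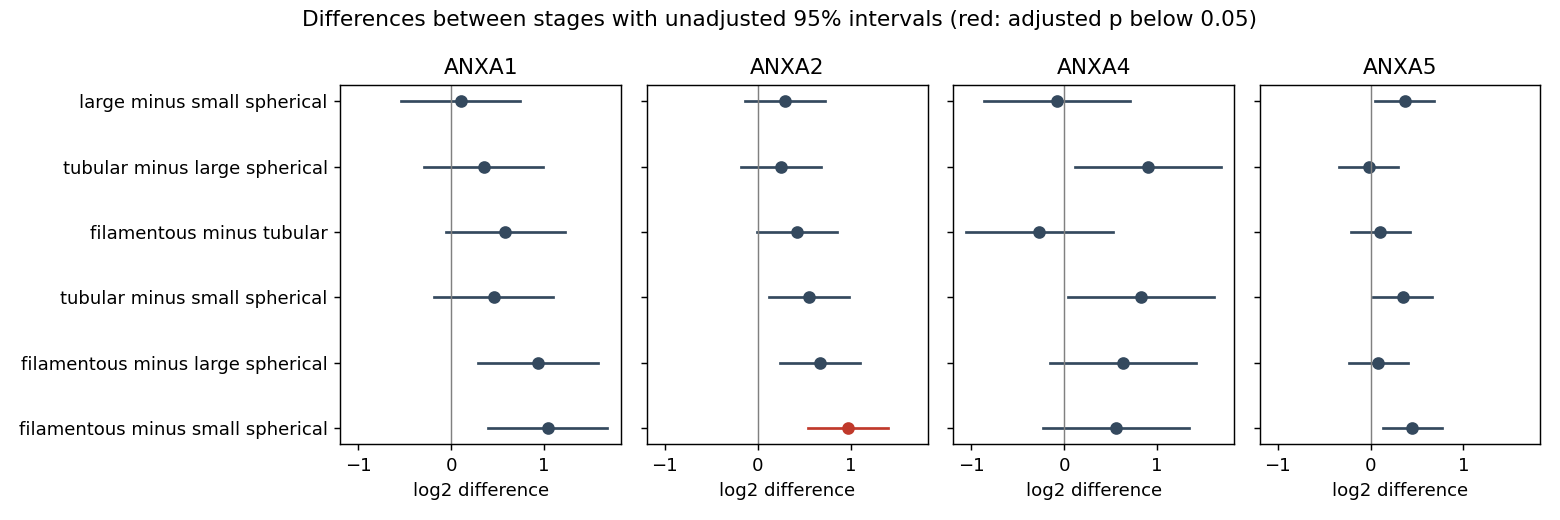
Fitted log2 differences between stages (x axis; a positive value is higher in the stage named first) for the 4 annexins, with unadjusted 95% intervals from all 16 arrays. ANXA2 in filamentous minus small spherical embryos, at 0.97, is the red point past the adjusted threshold, and the ANXA5 interval for tubular minus large spherical embryos is centred near 0.

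Over the single steps the 4 annexins did not all have the same sign. For large over small spherical embryos the log2 differences were 0.10 for ANXA1, 0.29 for ANXA2, -0.08 for ANXA4 and 0.37 for ANXA5. For tubular over large spherical embryos they were 0.35, 0.26, 0.90 and -0.02 in the same order of genes, and for filamentous over tubular embryos 0.58, 0.42, -0.27 and 0.11. Without filamentous array 1 the last step of ANXA1 was 0.31, and without tubular array 1 the step of ANXA4 to tubular embryos was 0.44. Positive differences made up 3 of 4 in each step, against 45.9%, 42% and 54.1% of probes. None of these 12 values passed by limma, and 0.394%, 0% and 0% of probes did so over the 3 steps, with 9.37%, 3.25% and 3.35% at an unadjusted p under 0.05. ANXA5 in the first step was the 1 annexin whose groups did not overlap, and in the other steps this was so of 1.18% and 1.97% of probes.

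Whether 2 annexins changed unequally was asked with their ratio within each array, between filamentous and small spherical embryos. The log2 ratio of ANXA2 to ANXA5 was 0.43, -0.10, 0.18 and 0.20 on filamentous arrays 1 to 4, against -0.58, -0.26, -0.34 and -0.20 on small spherical ones. It was higher on all 4 filamentous arrays than on any small spherical array, by 0.52 on the log2 scale (exact permutation test, two-sided, p = 0.0286, the smallest that 4 against 4 arrays allows). Adjusted over the 6 pairs of annexins it did not pass (exact permutation test, adjusted p = 0.171). The other 5 pairs differed by 0.07 to 0.59 on the log2 scale, with unadjusted p of 0.2 to 0.83 in the same exact test.

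ANXA1 and ANXA2 tended to be high on the same arrays of a stage. Their log2 deviations from the stage means had Pearson's r of 0.64 and Spearman's rho of 0.75 over 16 arrays (permutation within stages, two-sided, p = 0.0303 and 0.00547). Adjusted over the 6 pairs, rho passed and r did not (permutation, adjusted p = 0.0328 and 0.182). Without the 2 arrays farthest from the median of ANXA1 the r was 0.54, and on the 12 arrays numbered 2 to 4 it was 0.45 with a rho of 0.55 (permutation, adjusted p = 0.523 and 0.438). The 5 other pairs had r between -0.19 and 0.39, and none passed. Values of 1 array share its amplification, labelling and hybridisation, whose part in this was not tested.

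**Figure D4:**
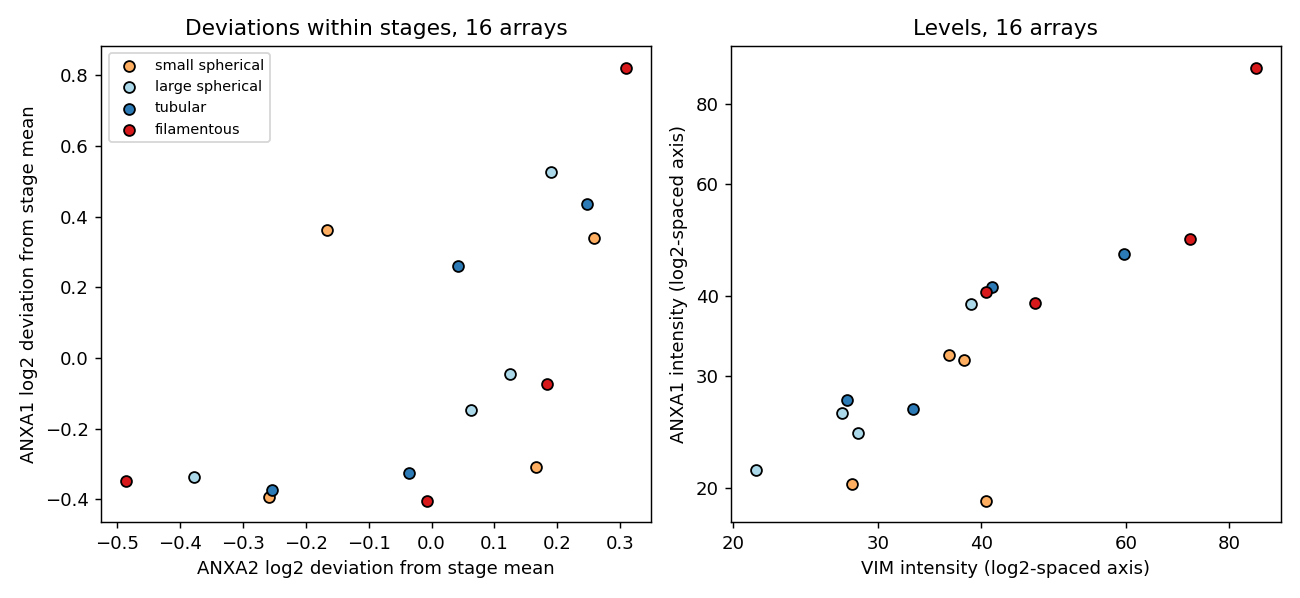
Left, the deviation of ANXA1 (y axis) against that of ANXA2 (x axis) from their stage means, in log2 units, for 16 arrays coloured by stage. Right, intensity of ANXA1 (y axis) against that of VIM (x axis) on log2-spaced axes; filamentous array 1 is the top right point in both panels.

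Among 633 other named genes, the pattern of ANXA1 over the 16 arrays was most like that of VIM, the intermediate filament vimentin (Pearson's r = 0.86, Spearman's rho = 0.81), followed by MAN2B1, a lysosomal mannosidase (r = 0.86, rho = 0.85), and GPX6, of the glutathione peroxidase family (r = 0.81, rho = 0.82). VIM was also the gene most like ANXA2 (r = 0.74, rho = 0.67), before ADSL, an enzyme of purine synthesis that read the maximum of the array on 3 arrays (r = 0.73, rho = 0.79), and TAGLN2, an actin-binding transgelin (r = 0.72, rho = 0.69). With the stage means taken out, r with ANXA1 was 0.80 for VIM, 0.86 for MAN2B1 and 0.67 for GPX6. For ANXA2 it was 0.65 with VIM, 0.39 with ADSL and 0.32 with TAGLN2. These genes were picked as the top of the ranking, so the coefficients describe the arrays and carry no test. VIM and ANXA1 held exactly the same value on 5 of the 16 arrays, and the deposited intensities of an array took 160 to 256 distinct values over 1015 probes. Such ties were not particular to VIM, since ANXA1 also tied with TAGLN2 on small spherical array 1 and with ANXA4 on tubular array 2. VIM is probe 585, close in number to ANXA1 at 572, and the part of probe position in these likenesses was not tested.

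VIM is a marker of mesoderm and other mesenchyme, and it read 86.0, 40.6, 46.6 and 71.7 on filamentous arrays 1 to 4, against 40.5, 38.2, 27.9 and 36.6 on small spherical ones (limma, adjusted p = 0.239). Of 8 mesoderm markers listed, 5 were measured, and their summed intensity ran from 198 to 250 in filamentous and 176 to 200 in small spherical embryos. Of the 5, VIM and KDR had a positive log2 difference, while T (-0.18), PECAM1 (-0.07) and BMP4 (-0.07) had a negative one, and the median was -0.07. The summed intensity of the 6 measured hypoblast and yolk sac markers, of 10 listed, ran from 439 to 592 in filamentous and 309 to 427 in small spherical embryos. The log2 difference was positive for 3 of these 6 (APOA1, FN1 and RBP4) and negative for TF (-1.37), AMBP (-2.23) and AFP (-0.07). Over all probes 45.6% were positive in this comparison, with a median of -0.03. No marker of either list passed between these stages, no marker was at 0, and the part of these cell types in the annexin values was not tested.

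The genes most like ANXA5 were NEK3, a protein kinase (r = 0.78, rho = 0.56), PDPN, the membrane glycoprotein podoplanin (r = 0.76, rho = 0.53), and KRT8, a keratin of trophectoderm (r = 0.76, rho = 0.61). After the stage means were taken out, KRT8 kept an r of 0.82 with ANXA5, against 0.51 for NEK3 and 0.44 for PDPN. ANXA4 was most like VEGFA, a growth factor of blood vessels (r = 0.78, rho = 0.31), YWHAQ, a 14-3-3 protein (r = 0.72, rho = 0.51), and TMSB10, an actin-sequestering thymosin (r = 0.63, rho = 0.70). On the 12 arrays numbered 2 to 4, which lack tubular array 1, r with ANXA4 was 0.19 for VEGFA, 0.34 for YWHAQ and 0.38 for TMSB10.

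Few of the genes that work with annexins were among the named genes. Of 32 listed partners and calcium-binding genes 4 were measured, S100A1, CALM2, PDCD6 and HSP90B1, and none passed in any comparison between stages. In filamentous over small spherical embryos 2 of the 4 were positive (against 45.6% of all probes), with a median log2 difference of 0.04 (-0.03 over all probes). S100A1, a calcium-binding S100 protein, averaged 54.4 ± 22.6 in filamentous and 81.9 ± 43.6 in small spherical embryos, and CALM2, a calmodulin, 255 ± 39.7 and 206 ± 22.6 (SD, n = 4). The listed S100A10 was not among the named genes, nor was any of the 8 other annexins listed.

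In the plasminogen system and its proteases, where ANXA2 acts as a receptor, 7 of 13 listed genes were measured and none passed. Their median log2 difference in filamentous over small spherical embryos was 0.19 with 4 of 7 positive. Over all probes the median was -0.03 and 45.6% were positive. MMP2, a matrix protease, averaged 110 ± 14.7 in filamentous and 88.8 ± 13.2 in small spherical embryos, and TIMP1, a protease inhibitor, averaged 22.8 ± 3.07 and 16.1 ± 9.36 (SD, n = 4). PLAU, the urokinase-type activator, had its arrays between 13.7 and 26.1 in filamentous and between 20.3 and 47.8 in small spherical embryos (log2 -0.52). TIMP2 averaged 20.1 ± 4.98 in filamentous and 37.8 ± 12.6 in small spherical embryos, the largest difference of the 7 (log2 -0.88). Of the phospholipid and prostaglandin enzymes 1 of 17 was measured, PTGES, which makes prostaglandin E and averaged 114 ± 45.0 in filamentous and 59.8 ± 14.2 in small spherical embryos without passing.

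Among 23 listed genes of cortical actin and its membrane links 5 were measured. TMSB10 passed the trend over the 4 stages (0.28 ± 0.06 per step, limma, adjusted p = 0.0482), where 0.986% of probes passed. No member passed between 2 stages. TAGLN2 averaged 73.0 ± 11.8 in filamentous and 39.0 ± 13.4 in small spherical embryos (log2 0.98 ± 0.26, limma, adjusted p = 0.097). ACTG1, a cytoplasmic actin, averaged 196 ± 46.4 and 196 ± 15.2 in the same order. The median of the list in filamentous over small spherical embryos was 0.21 with 3 of 5 positive, against 45.6% of all probes.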

How the data were processed

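Per the labels, total RNA of 16 pig embryo samples was amplified, labelled with phosphorus-32 and hybridised to cDNA membranes. The deposited table holds 1 linear intensity per probe and array; its scanning, background correction and normalization by the authors are not given in the sources used here. No column of values was left out (0). Array medians spanned 0.185 on the log2 scale, so values were taken to log2 with no offset or further normalization. 1 constant probe was dropped, leaving 1014. Of 1015 probes, 676 had 1 symbol, 15 several and 324 none; a gene with several probes was read by its brightest. No probe sequence, genome coordinate or protein sequence was used here.

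Stage means were fitted for each probe in limma 3.58.1 (R 4.3.3) over the 16 arrays, for 6 differences between stages, an F test and a linear trend with scores of -3, -1, 1 and 3. Tests were two-sided, with Benjamini-Hochberg adjustment over 1014 probes and a threshold of 0.05. Correlations used 100000 permutations within stages. Whether arrays within a stage represent separate animals or litters is not in the labels, so p-values reflect the spread of these samples alone, which may be technical. The fit was tested on simulated data with independent noise. Those data held no effect shared by probes of an array or by same-numbered arrays, so they cannot show how the fit behaves under one.

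Groups and replicate numbers came from sample titles. Members, lists, tests and alternatives were chosen with earlier results of these data known. Named genes were the annexins, the 3 genes most like each, and up to 4 members of each list. Same-numbered arrays deviated together in large minus small spherical embryos (r of 0.219 to 0.495 over probes), but in each other comparison at least 1 pair stayed under 0.1. The arrays numbered 1 deviated together in every comparison (r of 0.270 to 0.495). Alternatives were 3 normalizations (median centring, quantile, cyclic loess), a filter on dim probes, an offset, the replicate block, array weights, a robust prior with a variance trend, a fit to only the 2 stages compared, a batch term for the arrays numbered 1, those arrays left out, 2 arrays that lay toward other stages left out, and each array left out in turn. Plots were drawn with matplotlib 3.10.9.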

Additional observations from a re-analysis of the deposited data

Results flagged for a closer look

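Within a stage of 4 arrays, a single array stood far from the other three for some genes named for their likeness to an annexin by Dixon's criterion, which chance meets in about 1 in 20 groups. VEGFA, the gene most like ANXA4, read 306 on tubular array 1, the array on which ANXA4 was also highest, against 44.4 to 85.0 on the other tubular arrays. KRT8, which is like ANXA5, read 12.6 on small spherical array 4, where ANXA5 was also lowest at 84.6. PDPN held exactly the same value of 12.6 on that array. TAGLN2, which is like ANXA2, read 19.1 on small spherical array 1, where ANXA2 was also lowest at 69.1. No annexin itself met this criterion in any stage. Every stage of each annexin and of each gene named for likeness was screened, and the arrays named here were all that met the criterion. That is about the share of groups that chance gives. The likeness genes were picked over these same arrays, so an extreme array shared with an annexin follows partly from that choice.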

How the results depend on the processing

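The count of annexins past the threshold in filamentous minus small spherical embryos was 1 (ANXA2). It was 0 with median centring (adjusted p = 0.0571), under array weighting (0.0683), on the 12 arrays numbered 2 to 4 (0.16), without small spherical array 3 and filamentous array 1 (0.0522), in a fit to only the 2 stages (0.152), and after removal of the trend along probe number (0.0543), an alternative added after seeing the data. It ran from 0 to 1 with each array left out in turn. For the linear trend the count was 0 on the 12 arrays, 2 (ANXA1 and ANXA2) after removal of the same trend, and 0 to 1 over arrays left out. With the replicate number as a block ANXA2 differed by 0.97 (adjusted p = 0.0309), and no annexin call changed. In the other comparisons between stages, the F test and the pairs of annexins no alternative gave a call. Some log2 differences that did not pass changed sign. ANXA1 in large minus small spherical embryos was -0.20 on the 12 arrays and -0.0715 to 0.225 over arrays left out. ANXA4 in the same comparison was 0.0205 with cyclic loess, 0.0121 under array weighting and 0.0242 after removal of that trend. ANXA5 in tubular minus large spherical embryos was 0.0686 with quantile and 0.0725 with cyclic loess normalization, and -0.0797 to 0.0537 over arrays left out. ANXA4 in filamentous minus tubular embryos was 0.14 with array weights, 0.10 on the 12 arrays and -0.58 to 0.19 over arrays left out. The r of ANXA4 with ANXA5 deviations was -0.0205 on the 12 arrays. The cause of these changes was not tested beyond the arrays named. ANXA1 and ANXA4 are dim, and no blank feature gives a background level. The filter on dim probes removed ANXA4, which has no value there, and since each annexin has 1 probe, another probe of the same gene could not be tried.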
